A study of Mus musculus with 2 samples.

Results

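Glucagon (Gcg), somatostatin (Sst) and ghrelin (Ghrl) are the signature peptide hormone genes of 3 endocrine cell types of the pancreas, and they were followed in single cells of the mouse pancreas at embryonic day 18.5. They are 3 of the 27998 genes in the deposited files and were chosen by name, with earlier results of these data known. Their transcripts were read in endocrine cells, taken as cells with 5 or more UMIs (unique molecular identifiers, 1 per captured transcript) of Chga, Chgb, Pcsk1n, Neurod1 and Pax6 together. This gave 211 of 3233 kept cells in the library labelled knockout and 345 of 2611 in the library labelled control, and the remaining cells served to measure background. The series calls the knockout Dpy30∆P and the strain C57BL/6; the labels used here give neither the Cre driver nor the part of the gene that was deleted. Each group is 1 pancreas and 1 library, so no value has a replicate check and no difference was tested across animals.

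Islet hormones are made as larger precursors that are cut by convertases in the secretory granule. Glucagon, from alpha cells, raises blood glucose by acting on the liver; somatostatin, from delta cells, restrains the release of other hormones; ghrelin, from epsilon cells, is acylated by the enzyme Mboat4 before it acts on its receptor Ghsr. In the mouse embryo all of them arise from progenitors that switch on Neurog3, the factor that commits cells to the endocrine lineage, and ghrelin cells are much more frequent before birth than in the adult.

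All 3 genes lie on the minus strand (GRCm38). Gcg (ENSMUSG00000000394) spans chr2:62474530-62483650 with up to 6 exons, Sst (ENSMUSG00000004366) spans chr16:23889573-23890958 with 2 exons, and Ghrl (ENSMUSG00000064177) spans chr6:113716119-113719880 with up to 5 exons. The tags are read close to the 3' end of a transcript, and the last exons are 455, 369 and 151 bases long. A pair of gene models overlap Ghrl on the opposite strand, and the sources used here do not say whether counting used strand. The 250 bases before each RefSeq transcription start (GRCm38.p6) are shown, 5′ to 3′ on the gene's own strand, because these are the genes' nearest regulatory sequence and they differ in the motifs they hold. Capitals mark matches, on either strand, to TATAAA (the TATA box), TGACGTCA (the cyclic AMP response element), TAATTA (a homeodomain core) or CAGATG (an E-box bound by Neurod1).
Gcg, chr2:62483654-62483903: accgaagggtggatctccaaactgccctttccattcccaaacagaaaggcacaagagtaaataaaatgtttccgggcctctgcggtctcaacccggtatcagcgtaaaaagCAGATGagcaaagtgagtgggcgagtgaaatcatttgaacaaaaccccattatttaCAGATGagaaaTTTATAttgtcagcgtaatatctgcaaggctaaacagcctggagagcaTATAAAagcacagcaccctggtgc
Sst, chr16:23890845-23891094: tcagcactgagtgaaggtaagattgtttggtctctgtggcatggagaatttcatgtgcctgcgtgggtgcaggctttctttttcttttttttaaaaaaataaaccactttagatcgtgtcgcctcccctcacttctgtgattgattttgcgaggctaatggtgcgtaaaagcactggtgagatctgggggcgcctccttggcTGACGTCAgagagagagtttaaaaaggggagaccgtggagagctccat
Ghrl, chr6:113719912-113720161: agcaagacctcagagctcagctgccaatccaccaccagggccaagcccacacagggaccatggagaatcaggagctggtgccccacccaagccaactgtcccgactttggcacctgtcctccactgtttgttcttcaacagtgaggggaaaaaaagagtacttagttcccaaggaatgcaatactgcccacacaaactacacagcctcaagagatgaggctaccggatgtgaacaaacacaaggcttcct
The Gcg window holds TATAAA 24 bases before the start and its reverse complement TTTATA 72 bases before it, with CAGATG at 83 and 139 bases. The Sst window holds TGACGTCA 48 bases before the start. None of these letters occur in the Ghrl window, which was taken from the most upstream of 4 listed starts. Among 32851 RefSeq promoters of the same length, 12.4% hold TATAAA, 1.55% hold TGACGTCA, 4.84% hold TAATTA and 14.4% hold CAGATG. The gene spans above are from GENCODE, and the RefSeq start of Sst lies inside its span. The part of the Sst window that holds TGACGTCA therefore falls within that span. The motif matches describe the sequence and were not tested for binding.

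The libraries held 4779 barcodes and 33048640 UMIs (knockout) and 3986 barcodes and 25398522 UMIs (control), and 27 barcode sequences occur in both. Median depth was 7523 UMIs in endocrine cells labelled knockout and 10100 in those labelled control. Dpy30, the targeted gene, had 304 CPM (UMIs per 1000000 UMIs of the same cells) in endocrine cells labelled knockout and 159 CPM in those labelled control; 3' tags do not check the deletion. The libraries differ in sex as well as in label (Xist 46550 and 1 UMIs, Ddx3y 0 and 1570), and the 2 cannot be told apart. All 12 genes of an endocrine marker list had UMIs in the endocrine cells, where the list summed to 7463 CPM (knockout) and 8575 CPM (control), against 145 and 151 CPM in the other cells. That list includes the 5 genes of the endocrine rule, so the contrast is partly set by how the cells were chosen. Acinar enzyme and factor genes, 9 of 9 of them present, summed to 3181 CPM in endocrine cells labelled knockout and 1603 CPM in those labelled control, and mesenchymal genes, 7 of 7, to 454 and 77.7 CPM. In the other cells the acinar list had 26215 CPM (knockout) and 5999 CPM (control), and the mesenchymal list 4450 and 5757 CPM. Haemoglobin genes had 10150.5 CPM (knockout) and 6525 CPM (control) in endocrine cells, against 10360 and 6810 CPM in the other cells. Another list than the endocrine one was highest in 27 knockout and 30 control endocrine cells. Insulin (Ins1 with Ins2) took 8.43% of endocrine UMIs labelled knockout and 20.3% of those labelled control, which enters the denominator of every level reported here.

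Outside endocrine cells the 3 hormones were low in most cell sets, with exceptions in the library labelled control. In mesenchymal cells, which should lack them, Gcg had 9.06 CPM (95% interval 7.01 to 11.5; intervals here cover counting error only) in the library labelled knockout and 28.1 CPM (24.0 to 32.6) in the library labelled control. Sst had 3.71 CPM (knockout) and 4.46 CPM (control) in the same cells, and Ghrl had 6.73 and 7.26 CPM. Of the 49 Ghrl UMIs of knockout mesenchymal cells, 24 came from 1 cell. Endocrine levels exceeded those of mesenchymal cells 715-fold (knockout) and 359-fold (control) for Gcg, 1777-fold and 713-fold for Sst, and 348-fold and 334-fold for Ghrl. Acinar cells labelled knockout had 17.6 CPM of Gcg and 4.71 CPM of Ghrl, against 75.7 and 52.8 CPM in acinar cells labelled control, where 1 cell held 30 of the 53 Ghrl UMIs. Cells marked by haemoglobin genes had 45.5 CPM of Gcg and 2.16 CPM of Sst labelled knockout, against 1049 and 208 CPM labelled control, where 1 cell held 275 of 379 Gcg UMIs and 1 cell 73 of 75 Sst UMIs. Over all non-endocrine cells, Sst had 4.16 CPM (knockout) and 80.6 CPM (control), and 878 of the 1402 control UMIs came from 1 cell. Endothelial cells labelled knockout held no Ghrl UMI in 118 cells, and those labelled control held 10 UMIs in 180 cells. Endocrine cells held 97.4%, 99.2% and 97.6% of the Gcg, Sst and Ghrl UMIs of all kept cells labelled knockout, and 97.8%, 90.6% and 98.4% of those labelled control.

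**Figure D1:**
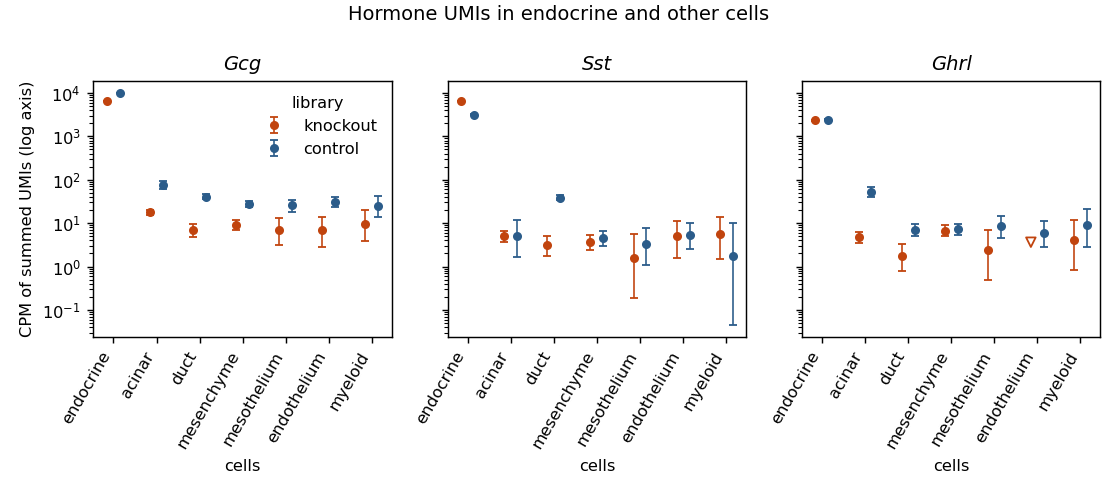
CPM of summed UMIs (log axis) of Gcg, Sst and Ghrl in endocrine cells and in acinar, duct, mesenchymal, mesothelial, endothelial and myeloid cells, knockout left of control in each pair. Points are library values with exact Poisson intervals, and an open triangle is the upper limit where no UMI was counted; every endocrine value lies above 2000 CPM and every other plotted value under 100 CPM; cells marked by haemoglobin genes, by nerve and glia genes or by no list are not drawn.

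A few hormone-rich cells fell outside the endocrine rule. There the library labelled control held 3 cells with at least 1% of their UMIs from Sst and 3 such cells for Gcg, and the library labelled knockout held none. The leading one had 878 Sst UMIs, 15.9% of its 5517 UMIs, and 4 UMIs of the 5 rule genes, 1 short of the threshold. A second had 171 Sst UMIs among 3300 and none of the rule genes. The 3 Gcg cells had 275, 27 and 14 Gcg UMIs and were marked by haemoglobin genes. Near the rule itself, 5 endocrine cells in each library had exactly 5 rule UMIs, and 10 knockout and 12 control cells had 3 or 4.

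Summed over endocrine cells, Gcg was lower, Sst was higher and Ghrl was close to equal in the library labelled knockout. Gcg had 6473 CPM (6362 to 6586) in endocrine cells labelled knockout and 10071 CPM (9976 to 10167) in those labelled control, a ratio of 0.643 (0.630 to 0.656). Sst had 6585 CPM (6473 to 6699) and 3178 CPM (3125 to 3232), knockout and control, a ratio of 2.07 (2.02 to 2.12). Ghrl had 2344 CPM (2277 to 2412) in endocrine cells labelled knockout and 2428 CPM (2381 to 2475) in those labelled control, a ratio of 0.966 (0.933 to 1.00). These intervals count UMIs as independent, but the UMIs sit in few cells. The 10 cells with most UMIs held 56.8% (knockout) and 29.0% (control) of the Gcg UMIs, 72.3% and 58.8% of the Sst UMIs, and 73.2% and 63.3% of the Ghrl UMIs. A single knockout cell with 2434 Sst UMIs, 27.5% of its own total, gave 18.6% of the Sst sum. When every cell had equal weight, the ratios were 0.511 for Gcg, 1.37 for Sst and 0.619 for Ghrl. Without cells in which another marker list was highest they were 0.663, 2.72 and 0.723. Among cells with no Neurog3 UMI the Ghrl ratio was 1.28, the reverse direction.

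Across the 11060 genes with 20 or more UMIs, 6.79% were at least 2-fold higher and 1.94% at least 2-fold lower in endocrine cells labelled knockout, 8.73% in all, and the median log2 ratio was 0.26. Of the 3 hormones, 1 passed 2-fold, namely Sst with a log2 ratio of 1.05, at the 94.0th percentile of all genes. Gcg had a log2 ratio of -0.64 (4.53rd percentile) and Ghrl of -0.05 (23.0th percentile). Relative to the median gene the log2 differences were 0.79 for Sst, -0.90 for Gcg and -0.31 for Ghrl, all under 2-fold. Dividing by size factors turned the split of genes past 2-fold to 383 higher and 420 lower, against 751 higher and 215 lower here.

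**Figure D2:**
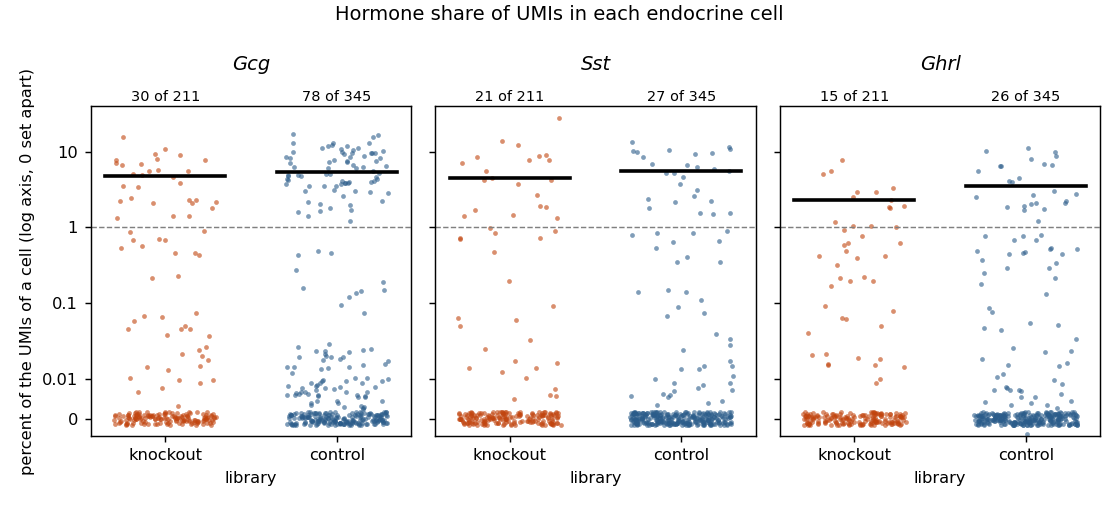
Percent of each endocrine cell's UMIs from Gcg, Sst and Ghrl (log axis with 0 set apart), 1 point per cell, knockout left of control. The dashed line is 1%, bars are medians of the cells at or over it, and the counts above each column are those cells of all endocrine cells; most cells of both libraries lie at 0 for each hormone.

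Most endocrine cells held no UMI of a given hormone, and a small set held most of its UMIs. A cell was called rich in a hormone at 1% or more of its UMIs, a range and not a cell type. Rich cells held 93.7% (knockout) and 99.3% (control) of the endocrine Gcg UMIs, 93.6% and 92.3% of the Sst UMIs, and 84.7% and 90.4% of the Ghrl UMIs. No Gcg UMI was found in 142 knockout and 181 control endocrine cells, no Sst UMI in 166 and 275, and no Ghrl UMI in 164 and 259.

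Gcg-rich cells were 30 of 211 endocrine cells (14.2%, 9.80 to 19.7) labelled knockout and 78 of 345 (22.6%, 18.3 to 27.4) labelled control, a ratio of 0.629 (0.428 to 0.924). Within them Gcg took 1.35% to 15.8% of a cell's UMIs with a median of 4.78% (knockout), and 1.22% to 17.2% with a median of 5.41% (control). The ranges overlap almost fully. Summed over rich cells, Gcg had 49202 CPM (knockout) and 64096 CPM (control), a ratio of 0.768 (0.752 to 0.783). Just under the threshold, at 0.5% to 1%, lay 7 knockout cells and 0 control cells, and at 1% to 2% lay 4 and 7. At a threshold of 0.5% the ratio of shares was 0.776. Over all kept cells, Gcg-rich endocrine cells were 0.928% (knockout) and 2.99% (control), a ratio of 0.311 (0.205 to 0.472).

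Sst-rich cells were 21 of 211 (9.95%, 6.27 to 14.8) in the library labelled knockout and 27 of 345 (7.83%, 5.22 to 11.2) in the library labelled control. The ratio of shares was 1.27 (0.738 to 2.19), an interval that includes 1. Sst took 1.32% to 27.5% of a rich cell's UMIs with a median of 4.49% (knockout), and 1.52% to 13.3% with a median of 5.55% (control). A pair of knockout cells, at 27.5% and 13.8%, lay above the highest control endocrine cell, while the knockout median lies lower. The control cell that fell just outside the endocrine rule had 15.9%, above the second of this pair. Summed over rich cells, Sst had 60083 CPM (knockout) and 52679 CPM (control), a ratio of 1.14 (1.11 to 1.17). The median depth of Sst-rich cells was 8960 UMIs labelled knockout and 6920 UMIs labelled control, while over all endocrine cells the order of depths was the other way. Of all kept cells, Sst-rich endocrine cells were 0.650% (knockout) and 1.03% (control), a ratio of 0.628 (0.356 to 1.11).

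Ghrl-rich cells were 15 of 211 (7.11%, 4.03 to 11.5) labelled knockout and 26 of 345 (7.54%, 4.98 to 10.8) labelled control, a ratio of 0.943 (0.512 to 1.74). The counting interval of the ratio spans both directions. Ghrl took 1.02% to 7.86% of a rich cell's UMIs with a median of 2.33% (knockout), and 1.23% to 11.1% with a median of 3.49% (control). Level per rich cell was the larger difference for this hormone: 27374 CPM (knockout) and 47062 CPM (control), a ratio of 0.582 (0.560 to 0.604). Of the 15 knockout cells, 7 lay between 1% and 2%, against 5 of the 26 control cells. Over all kept cells the Ghrl-rich share was 0.464% (knockout) and 0.996% (control), a ratio of 0.466 (0.247 to 0.878).

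**Figure D3:**
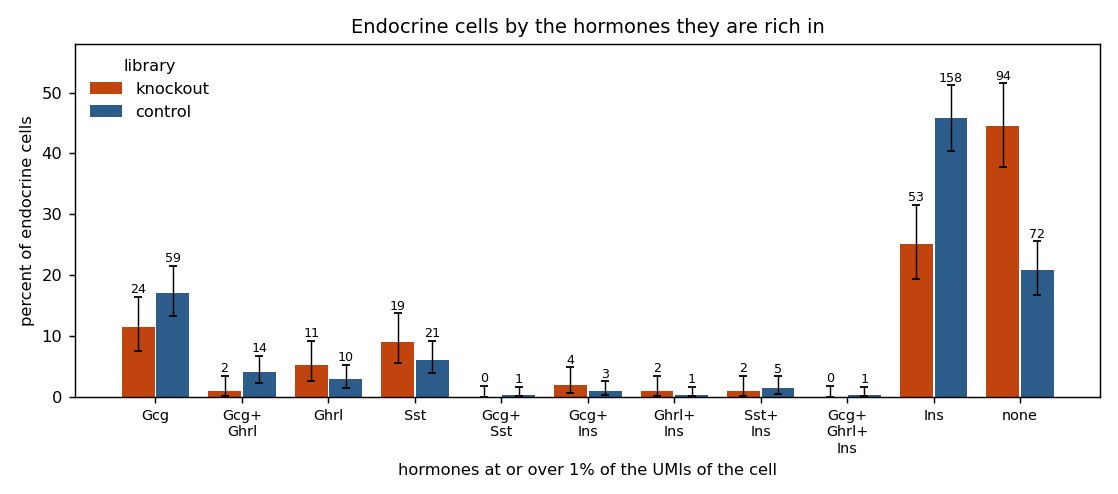
Percent of endocrine cells rich (at 1% or more of UMIs) in each combination of Gcg, Sst, Ghrl and insulin (Ins1 with Ins2), knockout left of control. Bars start at 0, error bars are Clopper-Pearson intervals and numbers are cells; cells rich in Gcg with Ghrl were 2 (knockout) and 14 (control), and cells rich in no hormone 94 and 72.

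The 3 hormones were mostly found apart, with 1 exception, the pair Gcg and Ghrl in the library labelled control. Of cells rich in at least 1 of the 3 hormones, 10 of 64 (15.6%, 7.76 to 26.9) labelled knockout and 25 of 115 (21.7%, 14.6 to 30.4) labelled control were rich in 2 or more of the 4 hormones, insulin included. Among Ghrl-rich cells, 2 of 15 (13.3%, 1.66 to 40.5) labelled knockout and 15 of 26 (57.7%, 36.9 to 76.6) labelled control were also Gcg-rich. Seen from Gcg, 2 of 30 rich cells (6.67%, 0.818 to 22.1) labelled knockout and 15 of 78 (19.2%, 11.2 to 29.7) labelled control were also Ghrl-rich. Each pair of intervals overlaps. At a threshold of 2%, 0 of 8 knockout and 6 of 21 control Ghrl-rich cells (28.6%) were also Gcg-rich.

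The 2 knockout cells rich in both held Gcg at 1.41% and 1.40% of their UMIs, with Ghrl at 2.33% and 1.06%. The first had 84 Gcg and 139 Ghrl UMIs among 5964, the second 200 and 151 among 14293. In the 15 control cells, Gcg ran from 1.62% to 13.2% with a median of 4.81%, and Ghrl from 1.23% to 8.85% with a median of 2.27%. Both knockout cells therefore lay below the lowest control value for Gcg, and 1 of them below the lowest control value for Ghrl. The 15 control cells had 4519 to 9548 UMIs with a median of 6947, against a median of 8277 in Gcg-rich cells without Ghrl and 6692 in Ghrl-rich cells without Gcg. Their median depth lay between those of the other rich cells.

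**Figure D4:**
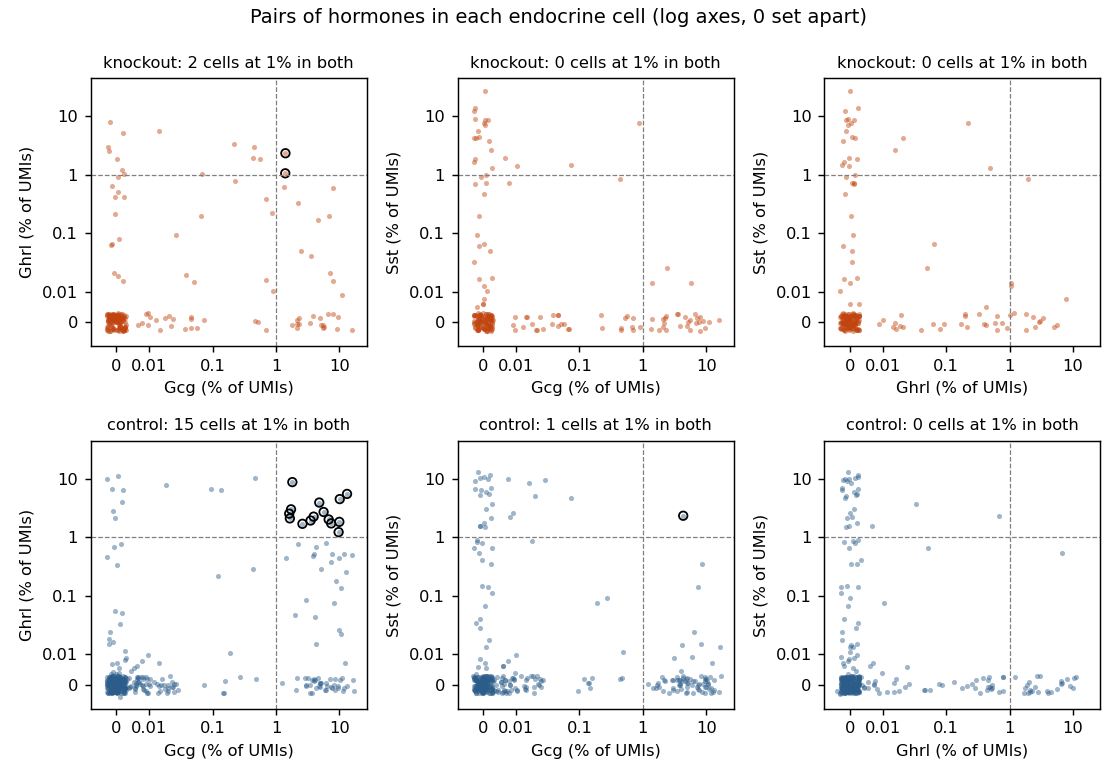
Percent of UMIs from 2 hormones in each endocrine cell (log axes with 0 set apart), library labelled knockout above and library labelled control below; dashed lines are 1% and ringed cells are at or over it for both. Rings mark 2 knockout and 15 control cells for Gcg with Ghrl, 0 and 1 for Gcg with Sst, and none for Ghrl with Sst.

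Below the threshold the same pair also shared cells. In cells rich in Gcg alone, Ghrl had 1103 CPM (957 to 1264, 24 cells) labelled knockout and 1109 CPM (1020 to 1203, 59 cells) labelled control, 164-fold and 153-fold its level in mesenchymal cells. A Ghrl UMI was found in 10 of the 24 (41.7%) and 22 of the 59 (37.3%), against 2.06% and 4.32% of mesenchymal cells; the median depths of the Gcg cells were 7396.5 and 8133 UMIs. In cells rich in Ghrl alone, Gcg had 1132 CPM (knockout, 11 cells) and 615 CPM (control, 10 cells). The intervals of Ghrl in Gcg cells overlap between the libraries, but they count UMIs as independent and a few cells held much of each sum. The highest Ghrl shares in Gcg cells were 0.626% and 0.594% of a cell's UMIs (knockout) and 0.796% and 0.774% (control), just under the 1% threshold. The highest Gcg share in cells rich in Ghrl alone was 0.562% (knockout) and 0.462% (control).

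Sst-rich cells were rarely rich in Gcg or Ghrl. No cell of either library was rich in Sst with Ghrl, and 0 of 30 Gcg-rich knockout cells (up to 11.6%) and 1 of 78 control cells were rich in Sst. That control cell had Gcg at 4.34% and Sst at 2.35% of its UMIs. In cells rich in Sst alone, Gcg had 749 CPM (626 to 890) labelled knockout and 57.0 CPM (26.1 to 108) labelled control. The knockout sum of 130 UMIs came from 3 of 19 cells. They held Gcg at 0.864%, 0.0735% and 0.0103% of their 14352, 6805 and 9694 UMIs, so 1 cell gave most of the sum. The summed Gcg levels are 82.7-fold (knockout) and 2.03-fold (control) that of mesenchymal cells. Ghrl had 721 CPM in the knockout Sst cells, in 4 of 19, and 31.7 CPM in the control cells, in 2 of 21, or 107-fold and 4.36-fold the mesenchymal level. In 2 of the knockout cells Ghrl took 0.497% and 0.223% of the UMIs, and in the others with a Ghrl UMI 0.0211% and 0.0153%. The knockout values thus rest on very few cells. Cells rich in Ghrl alone held 2 Sst UMIs (knockout) and none (control).

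Insulin met the 3 hormones in few cells. Gcg with insulin was found in 4 knockout and 3 control cells, Sst with insulin in 2 and 5, and Ghrl with insulin in 2 and 1; 1 further control cell was rich in Gcg, Ghrl and insulin. Cells rich in none of the 4 were 94 of 211 (44.5%, 37.7 to 51.5) labelled knockout and 72 of 345 (20.9%, 16.7 to 25.5) labelled control. By definition each hormone lay under 1% of the UMIs of every such cell. Summed over these cells, Gcg had 368 CPM (knockout) and 194 CPM (control), Sst 372 and 562 CPM, and Ghrl 485 and 420 CPM. Neurog3 was highest in them, at 544 CPM (knockout) and 627 CPM (control).

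Of 50 genes in 7 lists of receptors, processing enzymes, cell type genes and progenitor genes, 41 had 20 or more UMIs. Of these, 6 were at least 2-fold higher and 7 at least 2-fold lower in endocrine cells labelled knockout, with a median log2 ratio of -0.04 against 0.26 over all genes. Over all genes the shares were 6.79% higher and 1.94% lower. The lists are short, and nothing is read from their counts alone. By list, genes past 2-fold of those with 20 or more UMIs were 1 of 4 receptors (lower), 1 of 7 processing genes (higher), 3 of 10 alpha cell genes (2 higher, 1 lower), 0 of 4 delta cell genes, 3 of 5 ghrelin cell genes (2 higher, 1 lower), 4 of 7 beta cell genes (lower) and 2 of 5 progenitor genes (higher). Mboat4 stands in 2 lists, and Pcsk1n, a processing gene, is also 1 of the 5 genes that define the endocrine cells. The 6 higher genes are Mboat4, Acsl1, Gc, Pou3f4, Neurog3 and Neurod2. The 7 lower genes are Gcgr, Irx1, Vstm2l, Ins1, Ins2, Slc2a2 and G6pc2. The 4 beta cell genes among them stand beside the insulin share given above.

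**Figure D5:**
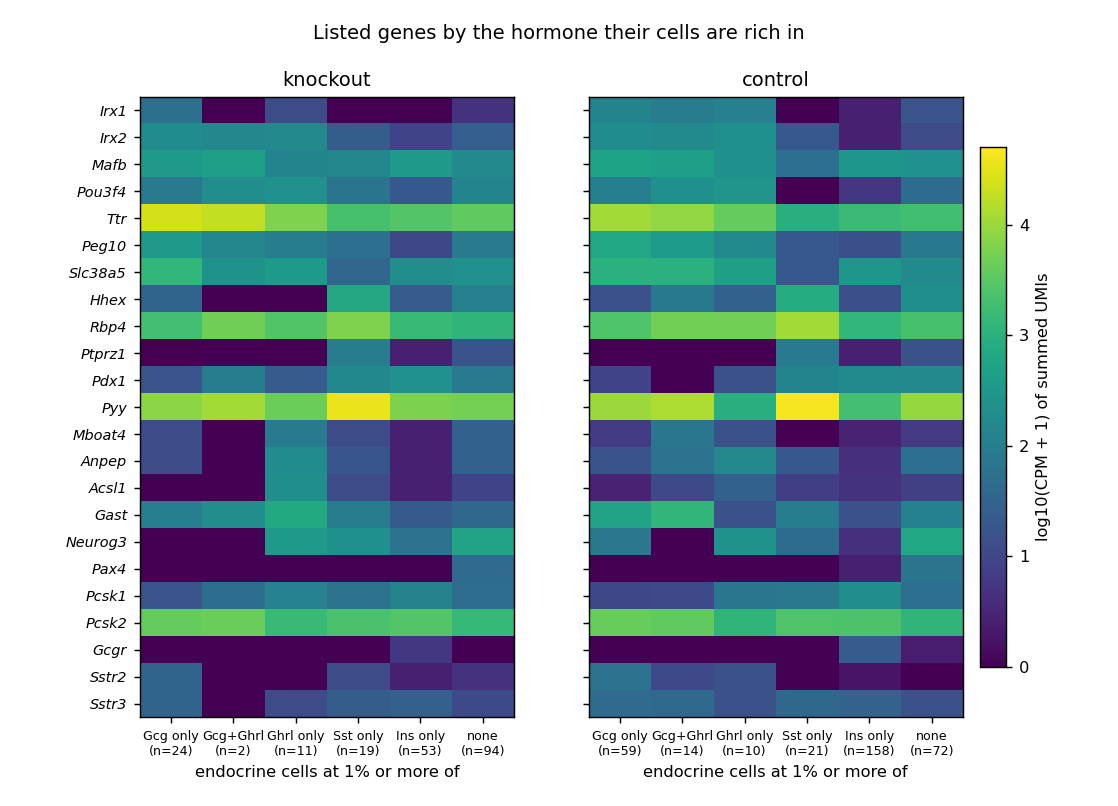
Levels of 23 listed genes, as log10(CPM + 1) of summed UMIs (colour scale), in endocrine cells rich in 1 hormone, in Gcg with Ghrl, or in none, library labelled knockout left and library labelled control right; n is cells. Hhex, Rbp4 and Ptprz1 are highest in cells rich in Sst alone in both libraries, and Ttr and Peg10 in cells rich in Gcg alone. Of the alpha cell genes compared between cells rich in 1 hormone or none, 5 of 9 (knockout) and 6 of 10 (control) were highest in Gcg cells. Ghrl cells were highest for 2 and 3 of them, Sst cells for 1 and 1, and insulin cells for 1 and 0. Of 4 delta cell genes compared, 1 was highest in insulin cells in each library.

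Pcsk2, the convertase that releases glucagon from its precursor, had 3913 CPM (knockout) and 4052 CPM (control) in cells rich in Gcg alone, and 1545 and 1175 CPM in cells rich in Ghrl alone. Pcsk1, which cuts proinsulin and, in the gut, proglucagon to GLP-1, had 16.1 and 9.59 CPM in the Gcg cells and 127 and 209 CPM in cells rich in insulin alone. Mboat4, which acylates ghrelin, had 35 UMIs in endocrine cells labelled knockout and 22 in those labelled control. In knockout cells it was highest in cells rich in Ghrl alone, with 8 UMIs and 87.0 CPM; in control cells it was highest in cells rich in both Gcg and Ghrl, with 7 UMIs and 69.4 CPM. These few UMIs set no firm order.

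Among alpha cell genes, Irx1, a homeodomain factor, had 16 endocrine UMIs labelled knockout and 107 labelled control. Its level in Gcg cells was 53.5 CPM (knockout) and 130.5 CPM (control). Ttr, the transthyretin carrier made by alpha cells, lay the other way, with 25161 CPM (knockout) and 11362 CPM (control) in the Gcg cells. That direction was not particular to Gcg cells. Cells rich in Sst alone had 2156 CPM (knockout) and 880 CPM (control) of Ttr, and cells rich in none had 3531 and 1931 CPM. Acinar cells had 1066 CPM (knockout) and 428 CPM (control), while duct cells had 1129 and 1476 CPM. Gc, a vitamin D binding protein of alpha cells, had 96.4 and 13.4 CPM in the Gcg cells, on 18 and 7 UMIs. Its level in acinar cells was 142 CPM (knockout) and 101 CPM (control), and over all non-endocrine cells 57.2 and 6.50 CPM. Acinar genes as a list had 3181 CPM (knockout) and 1603 CPM (control) within endocrine cells, and their part in the Gc difference was not tested.

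Among delta cell genes, Hhex, the factor required for delta cells in mice, had 680 CPM (knockout) and 810 CPM (control) in cells rich in Sst alone. Its level was at most 32.1 CPM in cells rich in Gcg or Ghrl alone, in both libraries. Rbp4, a retinol carrier, had 6191 CPM (knockout) and 11021 CPM (control) in the Sst cells, and Ptprz1, a receptor phosphatase, 98.0 and 82.3 CPM. Pdx1, shared with beta cells, had 156 and 133 CPM. Pyy, a peptide hormone, stands in the alpha cell list and not in the delta cell list. It was nevertheless highest in Sst cells, at 35938 CPM (knockout) and 44064 CPM (control). In cells rich in Gcg alone it had 7671 CPM (knockout) and 10040 CPM (control).

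Among ghrelin cell genes, Acsl1, a fatty acid activating enzyme, had 29 UMIs in endocrine cells labelled knockout, 20 of them in cells rich in Ghrl alone, and 21 in those labelled control, 2 of them in such cells. Anpep, an aminopeptidase, had 196 CPM (knockout) and 164 CPM (control) in cells rich in Ghrl alone and 10.7 and 15.3 CPM in cells rich in Gcg alone. Leaving out cells rich in both Gcg and Ghrl, 3 of 4 (knockout) and 3 of 5 (control) ghrelin cell genes compared were highest in Ghrl cells. Gast and Neurog3 belong to the progenitor list. Gast, the gastrin gene of the fetal pancreas, had 197 CPM (knockout, 4 UMIs) and 1249 CPM (control, 126 UMIs) in cells rich in Gcg and Ghrl. It had 729 CPM (knockout) and 13.7 CPM (control) in cells rich in Ghrl alone. Neurog3 had 0 UMIs (knockout) and 71.0 CPM (control) in cells rich in Gcg alone, and 337 and 259.5 CPM in cells rich in Ghrl alone.

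Receptors for these hormones were rare. Gcgr, the glucagon receptor, had 3 UMIs in endocrine cells labelled knockout and 58 in those labelled control, a ratio of 0.111 (0.0223 to 0.341). Cells rich in insulin alone, 53 knockout and 158 control cells, held 3 of the 3 and 54 of the 58, and within them the ratio was 0.222 (0.0444 to 0.684). Sstr2, a somatostatin receptor, had 13 and 34 UMIs, of which 6 and 30 lay in cells rich in Gcg alone. Sstr3 had 38 and 124 UMIs, a ratio of 0.659 (0.446 to 0.954), and was spread over Gcg, Sst and insulin cells. Ghsr, the ghrelin receptor, had 1 UMI (knockout) and 3 UMIs (control), and Glp1r, for the other proglucagon peptide GLP-1, 0 and 2. Differences in Ghsr and Glp1r were not detectable at this depth.

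The genes whose levels ran most like each hormone across endocrine cells were ranked over 2476 genes, by the smaller Pearson r of the 2 libraries (211 knockout and 345 control cells). Cells of a library share depth and makeup, so r is a description. Gcg ran with Ttr (r of 0.55 knockout, 0.69 control), Etv1 (0.55, 0.74), Wnk3 (0.53, 0.68), Slc38a5 (0.50, 0.50) and Slc7a2 (0.53, 0.46). Sst ran with Hhex (0.74, 0.77), Rbp4 (0.45, 0.52), Pyy (0.44, 0.52), Cd24a (0.41, 0.55) and Auts2 (0.43, 0.37). Ghrl ran less closely with Bsg (0.39, 0.34), Cpn1 (0.49, 0.34), Alcam (0.34, 0.34), Slc40a1 (0.34, 0.35) and Pgrmc1 (0.31, 0.37). Gcg with Ghrl had an r of 0.20 (knockout) and 0.38 (control), Gcg with Sst -0.15 and -0.14, and Sst with Ghrl -0.06 and -0.11.

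In the authors' deposited table of cluster genes, Gcg is the 1 hormone of the 3 that is listed. It stands at place 12 of 196 genes of cluster 5, with an adjusted p of 8.83e-142 across cells in the authors' deposited table. The authors' deposited table compares clusters and not the libraries.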

How the data were processed

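Single-cell 3' tags were counted in 1 library per group, so no test across animals was run. The values deposited are raw counts of UMIs in each barcode; per the file headers they came from Cell Ranger 3.0.0, and the submitters' processing notes name GRCm38, mm10, Cell Ranger and Seurat 2 and 3. In the authors' deposited table of cluster genes, the p-value and its adjusted form are the authors' own, and the score, an average log fold change of unstated base, was not used.

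Barcodes needed at least 500 detected genes and at most 10% mitochondrial UMIs. Cells over a Scrublet score of 0.32 in their own library were removed as doublets (24 knockout, 22 control). That threshold was set after the scores were seen: Scrublet's own threshold varied with the number of computing threads, and 0.32 gives the calls it made with 1 thread. Scores of 0.28 and 0.4 were run as alternatives, also added after seeing the data.

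A cell was endocrine at 5 or more UMIs of Chga, Chgb, Pcsk1n, Neurod1 and Pax6, and other cells were assigned to the marker list with the highest relative share. CPM is summed UMIs over all UMIs of the same cells, in parts per 1000000. Intervals are 95% and cover counting error only: exact Poisson for CPM, exact conditional binomial for ratios of CPM, Clopper-Pearson for shares and Katz for ratios of shares. All-gene ratios used genes with 20 or more UMIs over both libraries and a pseudocount of 0.5 UMIs. The all-gene ratios with their intervals and the ranking of similar genes were tested on simulated data. For the ratios, UMIs were drawn independently, so UMIs gathered in few cells were not simulated. Shares of rich cells were not simulated. The hormones, lists and rules were chosen with earlier results of these data known. Genes named are the 3 hormones, the 50 genes of 7 lists, and the 5 most similar genes per hormone by the smaller of both libraries' Pearson r over endocrine cells, on log(1 + UMIs per 10000), among genes with at least 100 UMIs in each library. Alternatives varied filters, doublets, the endocrine rule, depth (cells thinned to 2000 UMIs), totals and the threshold for rich cells. Promoter sequences are from RefSeq (GRCm38.p6). Scrublet was run through scanpy 1.11.5 with scikit-learn 1.9.0, statistics with SciPy 1.17.1 and figures with matplotlib 3.10.9, under Python 3.11.15. 1 listed gene is withheld for evaluation and is not reported here.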

Additional observations from a re-analysis of the deposited data

How the results depend on the processing

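Each result was recomputed one choice at a time. Of 136 alternative level ratios and shares, 108 stayed within the counting interval of the reported value, 27 moved beyond it and 1 changed direction. Among level ratios, 7 (Gcg), 5 (Sst) and 8 (Ghrl) stayed, 8, 10 and 6 moved, and 1 for Ghrl changed direction. All 13 alternative ratios of rich-cell shares stayed for each hormone, but their intervals are much wider. A change of direction was counted only for ratios whose interval excludes 1. Choosing endocrine cells with no Neurog3 UMI (156 knockout, 301 control) gave a Ghrl level ratio of 1.28 in place of 0.966, a Gcg ratio of 0.752 and an Sst ratio of 2.38. Giving every cell equal weight gave ratios of 0.511 (Gcg), 1.37 (Sst) and 0.619 (Ghrl). Thinning to 2000 UMIs also weights cells equally, so it is not a separate check, and gave 0.520, 1.37 and 0.620. Dividing by UMIs without 8 hormone genes gave 0.550, 1.77 and 0.827. A rule of 10 UMIs gave 0.668, 2.69 and 0.908, and a rule of 3 UMIs gave 1.89 for Sst. Without endocrine cells in which another marker list was highest, the ratios were 0.663, 2.72 and 0.723. Without the cell with most UMIs of the hormone in each library they were 0.609, 1.91 and 0.866. Keeping doublets gave 0.657 for Gcg and 2.13 for Sst, and adding hormone-rich cells outside the rule gave 1.92 for Sst. The causes were not tested.

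The shares of rich cells kept their direction under every alternative run, with ratios of 0.599 to 0.776 for Gcg, 1.07 to 1.76 for Sst and 0.623 to 0.965 for Ghrl. At a threshold of 2% of UMIs, 0 of 8 knockout and 6 of 21 control Ghrl-rich cells (28.6%) were also Gcg-rich, and 11.1% of control hormone-rich cells were rich in more than 1 hormone. Elsewhere the share of Ghrl-rich cells also rich in Gcg ran from 13.3% to 25% in the knockout and from 57.1% to 68.2% in the control library. Doublet score thresholds of 0.28 (34 knockout, 26 control doublets) and 0.4 (14 and 13) moved no level ratio or share beyond its interval. The 966 genes past 2-fold became 199 among genes with 100 or more UMIs and 4047 among genes with at least 1. Under size factors they were 803, with 383 higher and 420 lower, against 751 and 215 as reported. No paired analysis was possible because each group has 1 library.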
